A study of Mus musculus with 24 samples.

Results

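The genes described here mark Sertoli cells, and they were measured in mouse spermatid samples. They were chosen by name, as 10 symbols (Cst12, Cldn11, Rhox5, Aard, Defb19, Clu, Sox9, Gata4, Inha and Amhr2), with earlier results of these data known. Every array probe annotated to one of them was taken. This gave 12 of the 45281 probes, for 9 of the 19057 genes with an annotated probe. Clu was not analysed here. Of the 12 probes, 10 were above background (a detection p under 0.05) on at least 6 arrays and were tested, and they stand for 8 genes. The Gata4 probe and 1 of 2 Sox9 probes failed that filter.

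Sertoli cells are the somatic cells of the seminiferous tubule. They line its wall, enfold the germ cells at every stage, seal the inner tubule with tight junctions known as the blood-testis barrier, and secrete proteins and hormones into the tubule and the blood. Spermatids stay attached to them until release, and Sertoli cells take up the cytoplasm that late spermatids shed.

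Total RNA was hybridised to Illumina bead arrays, 24 in all, with 6 in each of 4 groups. The groups were condensing spermatids with a double knockdown of the acetyltransferases CBP and p300 in cells past meiosis, condensing spermatids of wild type, round spermatids with the same knockdown, and round spermatids of wild type. All came from adult mice at an age of 7 weeks, and no label used here states the strain, how the knockdown was made or how the spermatids were purified. Nor do the labels say that the 6 samples of a group came from separate animals. The p-values therefore cover only the scatter among these samples, which may be technical.

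On each array 15687 to 18411 probes (34.6% to 40.7%) were above background, and stage lay along the main axis of variation (70.5% of the variance). A list of 19 spermatid genes averaged 13.11 to 13.16 log2 per array in knockdown condensing, 13.12 to 13.20 in wild-type condensing, 13.44 to 13.51 in knockdown round and 13.38 to 13.49 in wild-type round samples. The targeted genes, Crebbp and Ep300, were added as a check of the genotype labels. Crebbp ran from 5.04 to 6.23 log2 in knockdown and 5.53 to 6.14 in wild-type condensing samples, and from 6.98 to 7.83 in knockdown and 7.15 to 7.73 in wild-type round samples. Ep300 ran from 6.44 to 6.82 in knockdown and 6.18 to 6.85 in wild-type condensing samples, and from 7.58 to 8.55 in knockdown and 7.62 to 8.67 in wild-type round samples. Both overlapped between the genotypes, so these probes do not check the labels. Array 3 of wild-type round and arrays 8 and 10 of knockdown round spermatids correlated less with their own group (median r of 0.977, 0.982 and 0.976) than the other arrays, which all reached at least 0.987.

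Windows around a transcription start of 3 of the genes are shown because they hold recognition letters of the factors that act on Sertoli genes. RefSeq sequences of GRCm38.p6, from 250 bases before to 50 after the start site that the sequence table uses, were matched for 5 of the 10 genes. For Inha and Amhr2 the annotated gene begins further upstream, at 75507077 and 102445002, so their windows lie inside the annotated gene. Searched on both strands were GATAA, the core bound by GATA factors such as GATA4, ACAAT, a core bound by SOX factors such as SOX9, and AGGTCA, a core bound by the nuclear receptor SF1. Among 32851 mouse promoters of that length, 25.4% held GATAA, 31.0% held ACAAT and 16.3% held AGGTCA. Capitals mark the matches in the 3 windows, which all lie on the plus strand.
Inha, chr1:75507359-75507658: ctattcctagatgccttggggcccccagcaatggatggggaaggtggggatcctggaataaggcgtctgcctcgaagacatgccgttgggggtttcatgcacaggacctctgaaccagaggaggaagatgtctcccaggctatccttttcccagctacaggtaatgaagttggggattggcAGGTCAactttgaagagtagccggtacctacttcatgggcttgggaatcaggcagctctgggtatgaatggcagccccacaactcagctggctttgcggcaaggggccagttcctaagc
Amhr2, chr15:102445117-102445416: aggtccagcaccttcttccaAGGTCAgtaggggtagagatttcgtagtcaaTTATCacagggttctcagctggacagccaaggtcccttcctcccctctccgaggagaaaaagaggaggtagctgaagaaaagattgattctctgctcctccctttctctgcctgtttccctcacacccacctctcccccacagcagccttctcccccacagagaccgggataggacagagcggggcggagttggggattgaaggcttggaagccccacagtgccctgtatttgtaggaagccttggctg
Rhox5, chrX:37754358-37754657: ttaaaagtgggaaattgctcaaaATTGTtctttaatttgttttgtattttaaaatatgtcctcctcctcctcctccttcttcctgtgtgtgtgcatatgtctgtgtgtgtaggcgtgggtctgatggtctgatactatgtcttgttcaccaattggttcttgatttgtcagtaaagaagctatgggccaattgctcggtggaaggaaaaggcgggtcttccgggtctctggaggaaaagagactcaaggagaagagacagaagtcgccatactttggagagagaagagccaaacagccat
Counted from the start site of each window, the AGGTCA match begins 69 bases before it in Inha and 230 bases before it in Amhr2. Amhr2 also has GATAA on the minus strand, printed as TTATC, 199 bases before that site, and Rhox5 has ACAAT on the minus strand, printed as ATTGT, 227 bases before it. The windows of Cst12 and Cldn11 hold none of these letters. A match describes the letters alone, and no binding was measured.

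The change of stage asks how the transcripts change as spermatids condense. All 8 measured genes were higher in condensing than in round spermatids, by 2.26 to 3.82 log2 in the knockdown and by 2.14 to 3.94 log2 in wild type, and all 8 passed the test (limma, Benjamini-Hochberg adjusted p under 0.05 over 19086 probes) in both genotypes. Over all probes 28% were called higher in the knockdown and 27.9% in wild type. No condensing array overlapped a round array for any of the 10 probes in either genotype, against 17.5% of all probes separated and higher in the knockdown and 18.9% in wild type. The median difference of the 8 genes was 3.11 log2 in the knockdown and 3.23 in wild type, beside -0.05 and -0.06 over all probes. Ranked from the highest wild-type difference among 19086 probes, the 8 genes stood between rank 13 and rank 194. Because the genes were chosen with earlier results of these data known, these counts and ranks are a description only. In these bulk samples more cells of a type and more RNA per cell cannot be told apart.

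**Figure D1:**
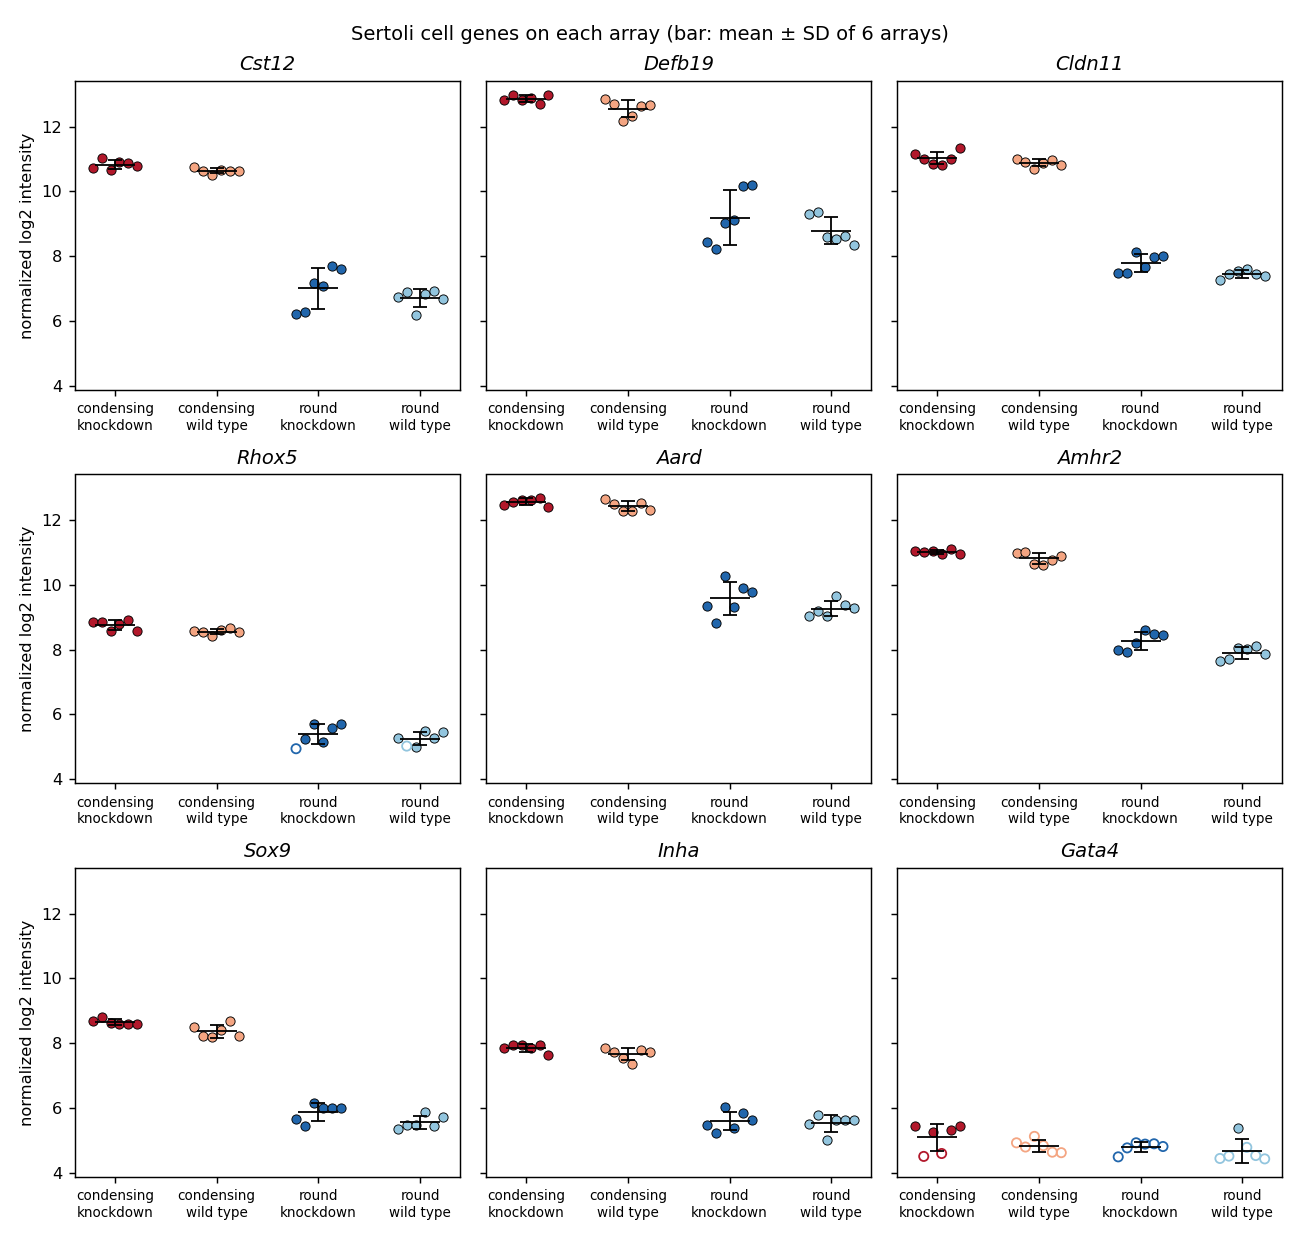
Log2 level of each measured gene's main probe, and of the Gata4 probe, on every array, by group, after background correction and quantile normalization. Points are arrays (6 per group), open circles are arrays with a detection p of at least 0.05, and bars give the mean with its SD. In the 8 measured genes every condensing array lies above every round array, and the Gata4 points overlap between all groups.

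Of the barrier and secreted proteins, Cldn11 encodes claudin 11, a strand protein of the tight junctions between Sertoli cells. Its probe (ILMN_1246139) ran from 10.80 to 11.33 log2 (median 11.005) in knockdown and from 10.71 to 11.02 (median 10.89) in wild-type condensing samples. In round samples it ran from 7.49 to 8.14 (median 7.82) in the knockdown and from 7.27 to 7.61 (median 7.45) in wild type. All condensing arrays were high and all round arrays low, while the genotypes overlapped at both stages. The rise was 3.23 ± 0.12 log2 (9.40-fold, limma adjusted p = 1.295e-18) in the knockdown and 3.43 ± 0.12 (10.8-fold; SE, n = 6 per group, limma adjusted p = 3.76e-19) in wild type.

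Cst12 encodes a cystatin, of a family of secreted inhibitors of cysteine proteases. The log2 level of its probe (ILMN_1260424) lay between 10.65 and 11.03 (median 10.83) in knockdown and between 10.52 and 10.75 (median 10.64) in wild-type condensing samples. Round samples lay between 6.21 and 7.68 (median 7.13) in the knockdown and between 6.18 and 6.92 (median 6.79) in wild type. The condensing arrays were tightly grouped and the knockdown round arrays spread widest, with an SD of 0.63 against 0.27 in wild-type round samples. Cst12 had the largest rise of the 8 genes: 3.82 ± 0.19 log2 (14.1-fold, limma adjusted p = 4.535e-16) in the knockdown and 3.94 ± 0.19 (15.3-fold, limma adjusted p = 2.592e-16) in wild type, there the 13th highest of 19086 probes. The deposited intensity, before any correction, had a median of 1400 in wild-type condensing and 241.9 in wild-type round samples.

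Defb19 encodes a beta-defensin, of a family of small secreted antimicrobial peptides. Its probe (ILMN_2742279) reached 12.71 to 12.98 log2 (median 12.86) in knockdown and 12.17 to 12.85 (median 12.66) in wild-type condensing samples. It had 8.22 to 10.21 (median 9.07) in knockdown round samples and 8.35 to 9.36 (median 8.60) in wild-type round samples. The range among knockdown round arrays was the widest of the 8 genes in any group. In wild-type round samples arrays 1 and 2, at 9.30 and 9.36, stood above the other four, which ran from 8.35 to 8.62. The stage difference was 3.67 ± 0.25 log2 (12.7-fold, limma adjusted p = 4.619e-13) in the knockdown and 3.77 ± 0.25 (13.6-fold, limma adjusted p = 2.743e-13) in wild type.

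Inha encodes the alpha subunit of inhibin, the Sertoli hormone that lowers the release of follicle-stimulating hormone. Its probe (ILMN_1239270) had 7.62 to 7.95 log2 (median 7.89) in knockdown and 7.35 to 7.85 (median 7.74) in wild-type condensing samples. In round samples it had 5.24 to 6.02 (median 5.55) in the knockdown and 4.998 to 5.77 (median 5.62) in wild type. It was above background on all 24 arrays. Its rise was the smallest of the 8 genes, 2.26 ± 0.13 log2 (4.80-fold, limma adjusted p = 2.657e-14) in the knockdown and 2.14 ± 0.13 (4.42-fold, limma adjusted p = 7.93e-14) in wild type. This size depended on how the background was handled: without background correction it was 1.105 in the knockdown and 1.004 in wild type.

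The receptor in the set is Amhr2, the type II receptor of anti-Mullerian hormone, made by Sertoli and Leydig cells of the testis. Its main probe (ILMN_2684178), the one with the highest mean of 3, ran from 10.94 to 11.10 log2 (median 11.03) in knockdown and from 10.61 to 11.01 (median 10.83) in wild-type condensing samples. It ran from 7.94 to 8.61 (median 8.34) in knockdown and from 7.65 to 8.10 (median 7.95) in wild-type round samples. All 3 probes separated the stages, but they differed in size. The main probe rose by 2.73 ± 0.12 log2 (6.65-fold, limma adjusted p = 5.054e-17) in the knockdown and 2.92 ± 0.12 (7.54-fold, limma adjusted p = 1.363e-17) in wild type. The second probe (ILMN_2621799) gave 2.11 ± 0.14 in the knockdown and 2.14 ± 0.14 in wild type, and the third (ILMN_2994042) 1.97 ± 0.13 in the knockdown and 1.91 ± 0.13 in wild type.

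Sox9 encodes the transcription factor that sets the Sertoli fate in the fetal gonad and stays on in adult Sertoli cells. Its kept probe (ILMN_2778151) lay between 8.59 and 8.80 log2 (median 8.62) in knockdown and between 8.19 and 8.70 (median 8.32) in wild-type condensing samples. In round samples it lay between 5.45 and 6.14 (median 5.99) in the knockdown and between 5.36 and 5.89 (median 5.47) in wild type. It was above background on every array, and its rise was 2.78 ± 0.12 log2 (6.85-fold, limma adjusted p = 5.248e-17) in the knockdown and 2.81 ± 0.12 (7.01-fold, limma adjusted p = 4.281e-17) in wild type. The other Sox9 probe (ILMN_3007428) was not above background on any of the 24 arrays, so the 2 probes of this gene differ in level. In a fit without the filter its stage difference had the same direction but was small, 0.35 log2 in the knockdown and 0.34 in wild type. Its signal stayed at background, so that size cannot be read. Without background correction the rise of the kept probe was 1.59 log2 in the knockdown and 1.48 in wild type.

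Rhox5, also known as Pem, is a homeobox gene of the X chromosome that androgen switches on in Sertoli cells. Its probe (ILMN_2762935) had 8.57 to 8.90 log2 (median 8.83) in knockdown and 8.41 to 8.66 (median 8.56) in wild-type condensing samples. It had 4.94 to 5.71 (median 5.42) in knockdown and 5.01 to 5.49 (median 5.28) in wild-type round samples, where it was above background on 5 of 6 arrays in each group. The difference was 3.37 ± 0.13 log2 (10.3-fold, limma adjusted p = 1.536e-18) in the knockdown and 3.31 ± 0.13 (9.89-fold, limma adjusted p = 2.832e-18) in wild type. Without background correction it was 1.83 in the knockdown and 1.72 in wild type. By main probe, Rhox5 and Inha were the genes whose difference was larger in the knockdown than in wild type, as it also was for the third Amhr2 probe.

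Aard is named after the domain rich in alanine and arginine that its protein holds. Its probe (ILMN_1237572) reached 12.41 to 12.69 log2 (median 12.59) in knockdown and 12.29 to 12.66 (median 12.40) in wild-type condensing samples. In round samples it had 8.83 to 10.27 (median 9.57) in the knockdown and 9.04 to 9.64 (median 9.25) in wild type. Aard was well above background in all groups, and its rise was 2.98 ± 0.16 log2 (7.90-fold, limma adjusted p = 3.829e-15) in the knockdown and 3.16 ± 0.16 (8.91-fold, limma adjusted p = 1.215e-15) in wild type.

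Gata4 encodes a zinc finger transcription factor of Sertoli and Leydig cells. Its probe (ILMN_2817903) was above background on 4 of 6 knockdown condensing, 0 of 6 wild-type condensing, 0 of 6 knockdown round and 1 of 6 wild-type round arrays. The medians were 5.28 log2 in knockdown condensing, 4.81 in wild-type condensing, 4.84 in knockdown round and 4.52 in wild-type round samples, with overlap between all groups. Gata4 was therefore left out of the main test, and no fold is given for it.

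**Figure D2:**
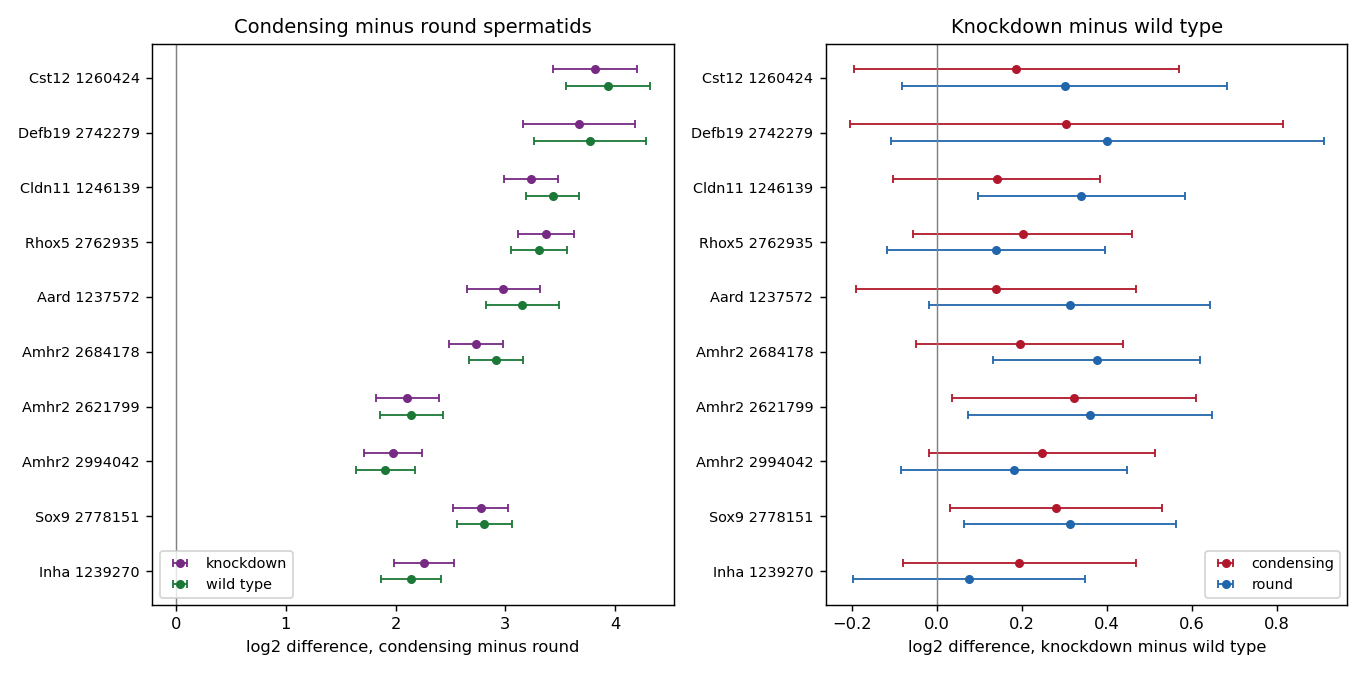
Log2 difference of the 10 kept probes of 8 genes, named by gene and probe number: condensing minus round in each genotype, and knockdown minus wild type at each stage. Points are estimates of the limma model and bars their 95% confidence intervals (n = 6 per group). The stage differences lie between 1.91 and 3.94, and the knockdown differences between 0.08 and 0.40.

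Other genes known from Sertoli cells were taken from a second list of 37 symbols, of which 20 had a kept probe. In the knockdown 16 of these 20 rose and 2 fell (median 1.63 log2), where 28% of all probes were called higher and 34% lower. In wild type 16 rose and 2 fell (median 1.64), where 27.9% of all probes were called higher and 35.1% lower. The filter also keeps genes that are above background mainly where they are high, which could favour a rise. Mro, named after its values were seen, was above background on 6 of 24 arrays and is counted among those that rose. Cst9, a cystatin also called testatin, rose by 3.53 log2 in the knockdown (limma adjusted p = 4.67e-15) and 3.35 in wild type (limma adjusted p = 1.512e-14). Defb36, a second beta-defensin, rose by 3.44 in the knockdown and 3.53 in wild type. Espn, an actin bundling protein of the Sertoli junctions with spermatids, rose by 1.75 and 1.83, in that order of genotypes. Mfge8, a bridge between phagocytes and the cells they take up, rose by 1.51 in the knockdown and 1.71 in wild type, and Eppin, a protease inhibitor, by 1.97 and 1.58. The 2 genes that fell were Pdgfa, a growth factor (-0.36 in the knockdown, limma adjusted p = 0.0372, and -0.37 in wild type, 0.0319), and Scarb1, a lipoprotein receptor (-0.56 in the knockdown, limma adjusted p = 0.000114, and -0.39 in wild type, 0.00445). The fall of Pdgfa was larger under median scaling, -0.84 in the knockdown and -0.98 in wild type. Its call was lost when any of arrays 7, 9, 11, 12, 19, 20, 22 or 24 was left out in the knockdown (-0.30 without array 12), or any of arrays 4, 5, 14 or 18 in wild type (-0.29 without array 4). Scarb1 was not above background on any condensing array of either genotype, so its fall has only a bound, at least 1.20-fold lower in knockdown condensing than in knockdown round samples.

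The markers of other somatic cells and of blood moved the same way between the stages, and their part in the result was not tested. Of the erythroid list 5 of 5 measured genes rose in the knockdown (median 5.73 log2) and in wild type (median 5.97), and its mean level per array was 11.41 to 11.65 in knockdown condensing, 11.20 to 11.40 in wild-type condensing, 6.32 to 7.66 in knockdown round and 6.03 to 7.20 in wild-type round samples. Hbb-bs, a beta globin, had the median rise of that list in both genotypes. In the knockdown 10 of 12 genes of the macrophage and leukocyte list rose (median 0.997), 7 of 9 of the peritubular and stromal list (median 1.18), 5 of 8 of the endothelial list (median 0.56) and 2 of 3 of the Leydig list (median 2.30). In wild type the counts were 10 of 12 (median 1.49), 7 of 9 (median 0.91), 6 of 8 (median 0.997) and 2 of 3 (median 2.30), and no gene of these lists was called lower in either genotype. Only genes with a kept probe were counted. Of those with any annotated probe, these were 5 of 7 erythroid, 12 of 14 macrophage and leukocyte and 9 of 13 peritubular and stromal genes. They were 8 of 10 endothelial and 3 of 7 Leydig genes. Here too the filter could favour a rise. Per array the macrophage and leukocyte list averaged 7.31 to 7.90 in knockdown condensing, 7.57 to 8.05 in wild-type condensing, 6.04 to 6.65 in knockdown round and 6.11 to 6.60 in wild-type round samples. The peritubular and stromal list averaged 7.36 to 7.497, 7.07 to 7.38, 5.69 to 6.12 and 5.85 to 6.13 in the same order of groups. The endothelial list averaged 6.19 to 6.43, 6.40 to 6.75, 5.54 to 5.81 and 5.58 to 5.75, and the Leydig list 7.98 to 8.54, 8.16 to 8.47, 6.37 to 6.90 and 5.85 to 7.09. The mean over the measured genes of each of these lists thus separated the stages on every array. In wild type H2-Ab1, an antigen-presenting molecule, rose by 2.08, Dcn, a matrix proteoglycan, by 1.63, Egfl7, an endothelial secreted factor, by 1.67, and Insl3, a Leydig cell hormone, by 2.68. The germ cell lists did not share that direction, and their counts stand beside the same shares over all probes. With 7 to 19 genes a list, counts near those shares are no result about a list. In the knockdown 1 of 8 spermatocyte genes rose and 4 fell, 2 of 7 spermatogonial genes rose and 2 fell, and 4 of 19 spermatid genes rose and 9 fell. In wild type 1 of 8 spermatocyte genes rose and 4 fell, 2 of 7 spermatogonial genes rose and 1 fell, and 6 of 19 spermatid genes rose and 9 fell. Among them Stag3, a meiotic cohesin, fell by 0.75, and Sohlh1, a spermatogonial factor, rose by 0.62, a call lost under median scaling. Ldhc, the germ cell lactate dehydrogenase, averaged 15.08 to 15.13 in the 4 groups, close to the top of the scale at 15.2, so its difference cannot be read. Of 2 epididymal genes 1 rose and the other, Cuzd1, fell by 1.17.

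**Figure D3:**
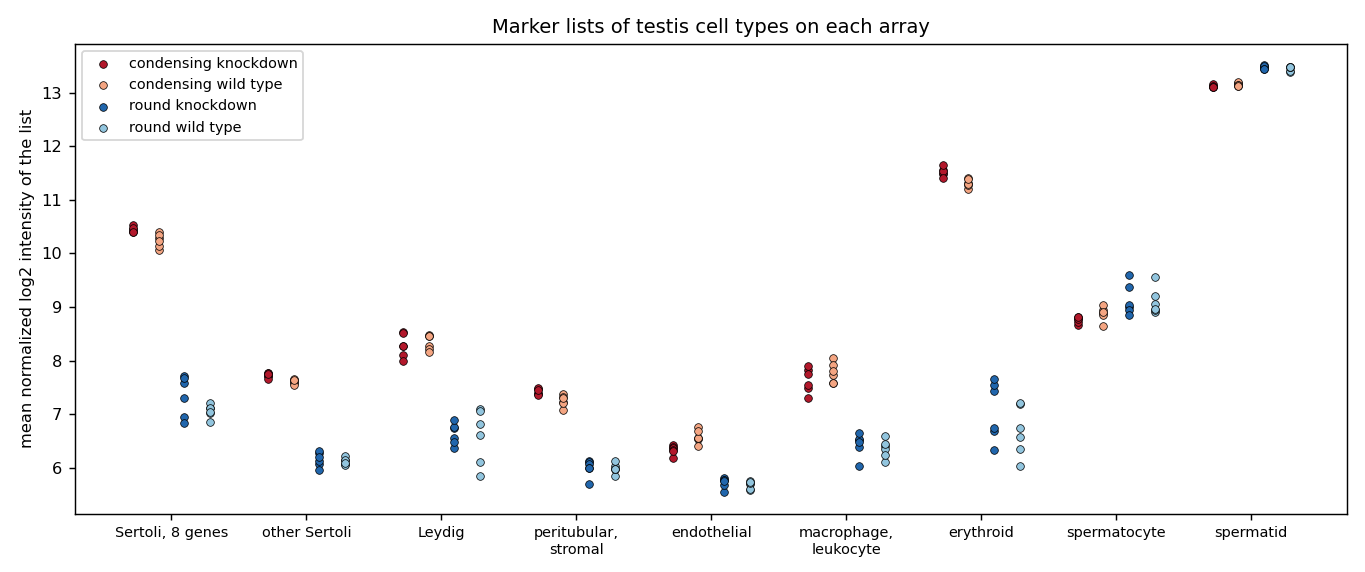
Mean log2 level of each marker list on every array, by group. Points are arrays, 6 per group, and each list's measured genes are averaged on the array. The Sertoli genes, the other Sertoli list and the lists of blood and other somatic cells lie higher on condensing arrays, and the spermatid list lies lower, at 13.11 to 13.20 in condensing and 13.38 to 13.51 in round samples.

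The knockdown asks whether the knockdown of CBP and p300 in the germ cells goes with other levels of these somatic genes. None of the 8 genes passed the test at either stage (limma, 0 of 8), though all 8 had a higher mean in the knockdown at both stages. In condensing spermatids 0.466% of all probes were called, and in round spermatids 0.00524%. The median difference was 0.19 log2 in condensing and 0.31 in round samples, beside 0.00 over all probes at both stages. At an unadjusted p under 0.05 the test took 1 of 8 genes in condensing samples, where it took 1603 of 19086 probes. In round samples it took 3 of 8 genes and 663 of 19086 probes. The 8 genes were read on the same arrays and covaried, as given below, so they are not 8 separate chances.

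In condensing samples the differences ran from 0.14 to 0.30, with Defb19 at 0.30 ± 0.25 (95% interval -0.21 to 0.81) and Sox9 at 0.28 ± 0.12 (0.03 to 0.53), and the lowest limma adjusted p was 0.509, for Sox9. In round samples the difference was 0.40 ± 0.25 log2 for Defb19, 0.38 ± 0.12 for Amhr2, 0.34 ± 0.12 for Cldn11, 0.31 ± 0.12 for Sox9, 0.31 ± 0.16 for Aard, 0.30 ± 0.19 for Cst12, 0.14 ± 0.13 for Rhox5 and 0.08 ± 0.13 for Inha. The limma adjusted p was 0.9994 for all 8, and the genotypes overlapped in all of them. Their 95% intervals together spanned -0.20 to 0.91, so differences of the size estimated could not be told from 0 after adjustment with 6 arrays a group. For the main Amhr2 probe 4 of 6 knockdown arrays lay above every wild-type array, and the 95% interval of its difference was 0.13 to 0.62. The other Amhr2 probes differed: the second gave 0.36 (0.07 to 0.65) and the third 0.18 (-0.08 to 0.45). On the third, 0 of 6 knockdown arrays lay above every wild-type array. Inha had the lower median in the knockdown although its mean was higher. Beside these, the erythroid list had a median difference of 0.22 in condensing and 0.49 in round samples, with 5 of 5 genes higher at each stage and none called. The other Sertoli list had a median of 0.11 in condensing and 0.09 in round samples, also with none of 20 called. Other lists went the other way in condensing samples: the endothelial list had a median of -0.18 with 1 of 8 genes higher, and the macrophage and leukocyte list -0.19 with 4 of 12 higher. The called genes of these lists in condensing samples were the endothelial Emcn (-0.78) and Esam (-0.54). From the peritubular and stromal list (median 0.23) they were Acta2 (-0.75) and Pdgfra (0.99). All were named after their values were seen. Emcn was above background on only 7 arrays. Its mean was 5.01 in knockdown condensing samples, where values above background began at 5.11. The size of its fall therefore cannot be read.

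The difference between the 2 stage changes was tested directly. It ran from -0.20 ± 0.17 log2 for Cldn11 to 0.12 ± 0.19 for Inha, was below 0 in 6 of 8 genes, and none passed (limma adjusted p from 0.865 to 0.991, none of the 8 at an unadjusted p under 0.05), where 0.11% of all probes were called. In every one of the 8 genes the group means took the same order, with knockdown condensing highest, then wild-type condensing, knockdown round and wild-type round. Only the step between the stages in that order exceeded the spread of the arrays, since neighbours of the same stage overlapped in all 8.

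The spread within a group differed between groups. The median SD over the 8 genes was 0.12 log2 in knockdown condensing, 0.16 in wild-type condensing, 0.31 in knockdown round and 0.22 in wild-type round samples. The mean of the 8 genes ran from 10.39 to 10.52 in knockdown condensing, 10.06 to 10.40 in wild-type condensing, 6.84 to 7.70 in knockdown round and 6.86 to 7.21 in wild-type round samples. The knockdown round group had both a low and a high set of arrays: arrays 7 and 8 lay 0.40 and 0.50 log2 below the group mean on average, with 0 of 8 genes above it, and arrays 11 and 12 lay 0.36 and 0.34 above it, with 8 of 8. Array 9 lay 0.24 above and held the highest Aard value of the group, 10.27. Among wild-type condensing samples array 13 had 8 of 8 genes above the group mean and array 15 had 0 of 8.

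**Figure D4:**
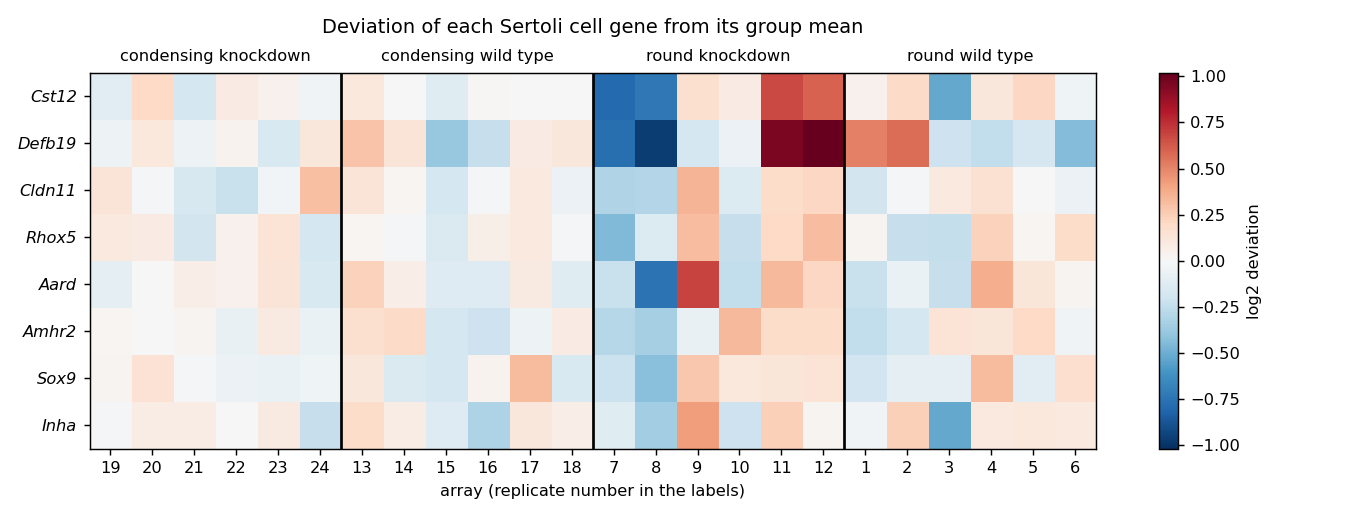
Deviation of each gene from its group mean on each array, in log2, as a colour scale. Columns are the 24 arrays by group and rows the 8 measured genes. Arrays 7 and 8 of knockdown round samples are below the group mean in all 8 genes and arrays 11 and 12 above it in all 8.

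Covariation asks whether arrays that are high for one gene are high for the others once stage and genotype are removed. The deviations from the group means correlated with a median Pearson r of 0.533 over the 28 pairs of genes (0.224 to 0.819) and a median Spearman rho of 0.458, and all 28 were above 0. The points are 24 arrays, each with 1 RNA sample and 1 normalization shared by all genes. Against the 19076 other kept probes the genes had a median r of -0.01, with 5% above 0.515. Single genes ranged in their median r with the other members from 0.419 for Defb19 and 0.431 for Amhr2 to 0.661 for Aard. Values of this size were not particular to the members. Ranked by median r with the members, Defb36 of the other Sertoli list had 0.458 at rank 421 of 10751 other genes.

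Of the 28 pairs, 6 passed at an adjusted p under 0.05 by Pearson r and 7 by Spearman rho (two-sided permutation within groups, 100000 resamples, Benjamini-Hochberg over 28 pairs). The share of pairs with other probes that would pass this test was not computed, so the counts do not set these genes apart. Aard and Inha had r = 0.784 (permutation p = 9e-05, adjusted p = 0.00252) and rho = 0.830 (adjusted p = 0.00056), and r = 0.692 without the 2 arrays farthest from the median. Cst12 and Defb19 had the highest r, 0.819 (permutation p = 0.00522, adjusted p = 0.03198), but a rho of 0.562 that did not pass (adjusted p = 0.05341). Sox9 entered 3 of the other called pairs: with Aard (r = 0.739, adjusted permutation p = 0.00518; rho = 0.614, adjusted p = 0.03356), with Cldn11 (r = 0.641, adjusted permutation p = 0.01269; rho = 0.590, adjusted p = 0.02839) and with Rhox5 (r = 0.626, adjusted permutation p = 0.03198; rho = 0.668, adjusted p = 0.02534). Cldn11 and Aard passed by r alone (0.656, adjusted permutation p = 0.04835; rho = 0.576, adjusted p = 0.07658). Passing by rho alone were Cst12 with Aard (rho = 0.633, adjusted permutation p = 0.02931; r = 0.661, adjusted p = 0.08942), Cst12 with Inha (rho = 0.609, adjusted permutation p = 0.02839; r = 0.610, adjusted p = 0.05309) and Rhox5 with Aard (rho = 0.730, adjusted permutation p = 0.02839; r = 0.675, adjusted p = 0.05309). In the 6 pairs that passed by Pearson r, r was 0.545 to 0.714 without the 2 arrays farthest from the median. Inha and Amhr2 had the lowest r, 0.224.

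Within groups the median r over the 28 pairs was 0.173 in knockdown condensing (17 pairs above 0), 0.656 in wild-type condensing (27), 0.749 in knockdown round (28) and 0.310 in wild-type round samples (18). Over the 18 arrays outside the knockdown round group the median r was 0.234 (-0.274 to 0.717), 21 of 28 pairs were above 0, and no pair passed by Pearson r, the measure tested there. For the 6 pairs called by r over all arrays, r was then 0.639 for Aard with Inha, 0.606 for Aard with Sox9, 0.589 for Rhox5 with Sox9, 0.418 for Cldn11 with Sox9, 0.383 for Cst12 with Defb19 and 0.171 for Cldn11 with Aard. Cst12 with Inha had the highest r there, 0.717 (permutation p = 0.01699, adjusted p = 0.1864). Leaving out the 3 arrays that stood apart (3, 8 and 10) gave a median of 0.489 with 5 pairs passing. By stage the median r was 0.348 over the 12 condensing and 0.612 over the 12 round arrays. Against the other kept probes 5% of the r of the members lay above 0.575 in condensing and above 0.660 in round arrays. Both stage medians lay below those values.

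**Figure D5:**
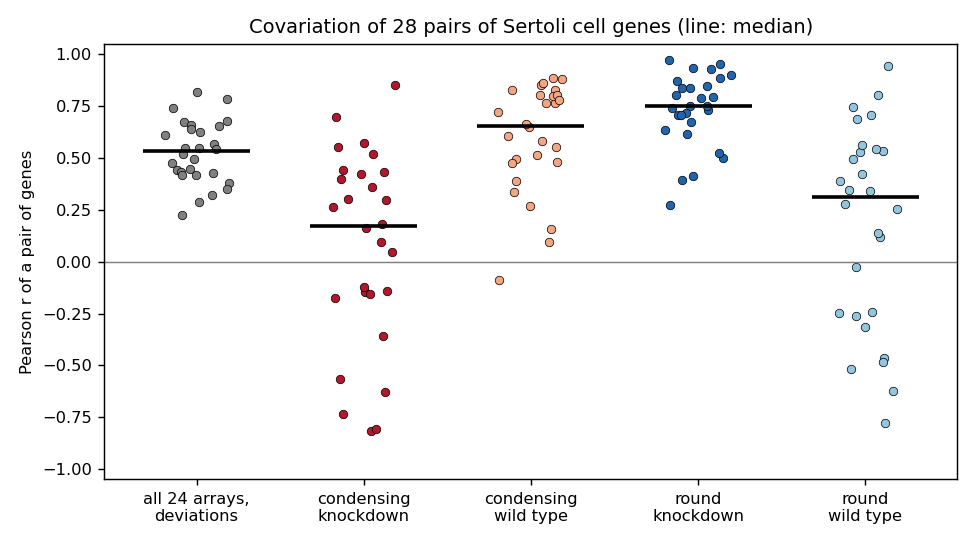
Pearson r of deviations from the group mean for the 28 pairs of genes, over all 24 arrays and within each group of 6. Points are pairs and lines the median. All 28 pairs lie above 0 over all arrays and in knockdown round samples, and 17 do in knockdown condensing samples.

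With the other lists the members covaried less. The median r of members with the genes of a list over 24 arrays was 0.187 for the erythroid list, 0.136 for the other Sertoli list, 0.044 for macrophages and leukocytes, 0.032 for peritubular and stromal cells, -0.003 for endothelium and spermatids, -0.039 for Leydig cells and -0.247 for spermatocytes. In condensing samples alone it was -0.410 for macrophages and leukocytes and 0.056 for the erythroid list, and in round samples 0.251 and 0.324. These values are descriptions without a test.

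Of 10751 other genes, the 10 with the highest median r with the members over 24 arrays were Hook2 (0.670), Cst9 (0.665), Tmem114 (0.663), Gstp1 (0.655), 1700003H04Rik (0.647), Ppm1m (0.643), Kmt5a (0.640), Tex29 (0.638), Ccdc12 (0.630) and Cdkn3 (0.628). Cst9 is the only one on the other Sertoli list. They fall into sets by their own stage difference in wild type. Cst9, Ppm1m, a protein phosphatase, Gstp1, a glutathione transferase, and Tmem114, a membrane protein, rose by 3.35, 3.18, 2.90 and 2.86 log2. Kmt5a, a histone methyltransferase, rose by 0.56, a call lost under median scaling (0.21, limma adjusted p = 0.247). Hook2, a microtubule linker protein, fell by 0.55 (-0.65 in the knockdown) and Ccdc12 fell by 0.58 (-0.13 in the knockdown). Cdkn3, a phosphatase of cell cycle kinases, fell by 0.73 (-0.53 in the knockdown). Tex29 at 0.04 and 1700003H04Rik at -0.38 (limma adjusted p = 0.0917) did not pass. 1700003H04Rik did pass under median scaling (-0.999, limma adjusted p = 4.02e-05), with array weights (-0.49), without array 3 (-0.51) and with only the wild-type arrays in the fit (-0.38). The wild-type falls of Hook2 and Ccdc12 were larger under median scaling, -1.14 and -1.13.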

How the data were processed

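Per the file headers, the first deposited table holds, for every probe and array, a bead intensity that was not normalized and a detection p-value against control beads. The authors' second deposited table holds processed intensity values on a linear scale. The sources used here do not give the authors' software or tests. From the first table, background was corrected by normexp with the detection p-values, then 16 was added as offset before quantile normalization and log2 (neqc steps, limma 3.58.1, R 4.3.3). The offset makes folds of dim probes smaller. Of 45281 probes, 19086 with a detection p under 0.05 on at least 6 arrays were kept. Gene names came from the platform annotation: 34885 probes had 1 symbol, 18 several and 10378 none. RefSeq GRCm38.p6 gave the promoters, and the files name no genome build.

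The limma model had 4 group means and 5 contrasts, with Benjamini-Hochberg adjustment over all kept probes. Errors of differences are standard errors, and the median 95% interval reached 0.29 log2 to either side. The number of arrays limits the precision. Where a gene had several probes, the one with the highest mean represented it. Permutations used numpy 2.4.6 in Python 3.11.15. The fit was tested on simulated data. No labels give a batch.

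The members and lists were chosen with earlier results of these data known. Named were all members, the 6 other Sertoli genes of highest mean and any that fell, the 10 genes most like the members, and the gene of highest mean in each further list. Crebbp and Ep300 were added. Lists covered other Sertoli genes, Leydig, peritubular and stromal, endothelial, macrophage and leukocyte, erythroid and epididymal cells, spermatogonia, spermatocytes and spermatids. Alternatives changed scaling, background, offset, filter, probe choice, array weights, the samples in the fit and the arrays kept.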

Additional observations from a re-analysis of the deposited data

Results flagged for a closer look

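Of 48 combinations of a member probe and a group, 5 had 1 array far from the other five by Dixon's ratio (above 0.625), and chance alone gives about 1 in 20. Array 3 of wild-type round spermatids was the lowest for Cst12 at 6.18 log2, with the next at 6.66 and the highest at 6.92. The same array was the lowest for Inha at 4.998, with the next at 5.49, and the highest for Gata4 at 5.39, with the next at 4.78. It is 1 of the 3 arrays that correlated less with their group. Array 7 of knockdown round spermatids was the lowest for Gata4 at 4.49, with the next at 4.77. Array 24 of knockdown condensing spermatids was the lowest for Inha at 7.62, with the next at 7.85.

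The Gata4 probe, left out of the main tests by the filter, was above background on 4 of 6 knockdown condensing arrays and on 0 of 6 wild-type condensing arrays. These counts were not compared by a test. In a fit without the filter its level in condensing samples was 0.27 ± 0.17 log2 higher in the knockdown. That difference did not pass (limma adjusted p = 0.815).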

How the results depend on the processing

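Under 10 other settings and with each of the 24 arrays left out in turn, all 8 measured members stayed called between the stages in both genotypes (7 of 7 where detection on all 24 arrays was required, which drops Rhox5), and none was called for the knockdown. The setting without the filter added Gata4, which was not called between the stages (limma adjusted p = 0.245 in the knockdown and 0.66 in wild type). For the difference of the stage changes, run under 9 of these settings and the same arrays left out, none was called either. Single members' stage differences, Gata4 aside, ran from 1.105 to 3.96 log2 in the knockdown and 1.004 to 3.98 in wild type. The median stage difference was smaller in the knockdown and in wild type under median scaling (2.82 and 2.89, with all probes at -0.26 and -0.34), without background correction (2.55 and 2.64), with an offset of 50 (2.77 and 2.92) and in the authors' second table (2.55 and 2.64), and the cause was not tested. Leaving out 1 array gave medians of 3.002 to 3.21 for the stage difference in the knockdown and 3.18 to 3.29 in wild type, 0.16 to 0.22 for the knockdown in condensing and 0.23 to 0.42 in round samples, -0.25 to 0.01 for the difference of the stage changes, and 0.399 to 0.565 for the covariation. Without the knockdown round group, a setting chosen after seeing the data, the median r was 0.234. No paired analysis was possible because the replicate numbers run from 1 to 24 and no number is shared by 2 groups. Rhox5 was below background on 1 array of each round group and Gata4 on all but 5 arrays, which limits what signal over background can show for them. The sources do not say whether arrays share animals.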
